A study of Homo sapiens with 32 samples.

Results

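The haematopoietic cytokine receptors described here are 9 genes: EPOR, CSF2RA, CSF2RB, CSF3R, IL3RA, IL6R, IL6ST, IL2RG and IL10RA. They were measured on Affymetrix expression arrays, with 1 array for each of 32 AML (acute myeloid leukaemia) cell lines, all established and human. The members were taken as the probe sets whose only gene symbol in the platform annotation is one of these names, which gave 25 probe sets. For each gene the probe set with the highest mean over the 32 lines was used, and the 9 are among 19775 genes chosen in the same way. All 9 passed the limit on low values that left 15455 genes for testing. Levels are given as log2(signal + 16), called the log2 level below.

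No line was treated, and the labels give no condition other than the growth medium. A cytokine was added for 4 lines: IL-3 (5 ng/ml, in RPMI 1640) for F-36P, and either GM-CSF or SCF (in alpha-MEM) for the lines OCI-AML2, OCI-AML3 and OCI-AML5, where the protocol does not say which line received which factor. A further 21 lines grew in RPMI 1640 and 4 lines (SH-2, SHI-1 and the OCI-M pair, OCI-M1 and OCI-M2) in IMDM, with no cytokine named for either. That none is named does not show that none was added. The medium of MV4-11, MOLM-13 and MOLM-16 was not stated. The study behind the arrays asked how expression goes with sensitivity to inhibitors of PIM kinases, and sensitivity was not used here. KG-1A is a subline of KG-1 and PLB-985 a subline of HL-60, so each pair was averaged to 1 unit in the tests, which left 30 units. Each line is 1 culture, so every spread given here is between lines, and no spread within a line can be given.

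These receptors lack a kinase of their own and signal through JAK kinases bound to their cytoplasmic tails, which phosphorylate STAT proteins; the PIM kinase genes are among the genes that STAT5 induces. EPOR and CSF3R, the receptors of erythropoietin and G-CSF, work as homodimers. The others are built from a chain that binds the ligand and a chain shared between several ligands: IL3RA and CSF2RA bind IL-3 and GM-CSF and pair with the beta chain CSF2RB, IL6R binds IL-6 and pairs with gp130 (IL6ST), IL2RG is the common gamma chain of the IL-2 receptor family, and IL10RA is the ligand-binding chain of the IL-10 receptor. In normal haematopoiesis EPOR marks the red cell lineage, CSF3R the neutrophil lineage, and IL3RA (CD123) early progenitors and many AML blasts.

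The promoters of 4 members are shown, picked by the results below, none of which uses a promoter. EPOR followed the erythroid marker genes and IL6R ran against them. IL3RA and CSF2RA are neighbours in the pseudoautosomal region with r = 0.557 between their levels. Each window runs from 250 bases before the annotated start to 50 bases after it, 300 bases read 5′ to 3′ on the strand of the gene, from RefSeq on GRCh38.p14. The windows are chr19:11384265-11384564 (minus strand) for EPOR, chr1:154405093-154405392 (plus strand) for IL6R, chrX:1336535-1336834 (plus strand) for IL3RA and chrX:1268564-1268863 (plus strand) for CSF2RA. Capitals mark matches, on either strand, to the GATA motif (AGATAA, with T also allowed as its first letter and G as its last), the GC box GGGCGG, the letters GAGGAA found at the core of PU.1 sites, and TTCNNNGAA, the STAT motif.
EPOR: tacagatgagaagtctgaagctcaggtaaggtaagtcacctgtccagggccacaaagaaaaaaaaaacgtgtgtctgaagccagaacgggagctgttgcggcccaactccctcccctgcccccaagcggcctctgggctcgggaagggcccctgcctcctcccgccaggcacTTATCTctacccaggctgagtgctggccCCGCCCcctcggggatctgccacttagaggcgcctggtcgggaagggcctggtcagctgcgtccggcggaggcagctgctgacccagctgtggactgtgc
IL6R: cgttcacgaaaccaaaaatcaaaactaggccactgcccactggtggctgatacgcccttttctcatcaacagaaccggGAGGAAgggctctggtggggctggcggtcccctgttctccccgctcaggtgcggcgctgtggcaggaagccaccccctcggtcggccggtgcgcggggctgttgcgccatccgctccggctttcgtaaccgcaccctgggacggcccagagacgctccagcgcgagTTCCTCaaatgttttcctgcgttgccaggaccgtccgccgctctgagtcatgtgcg
IL3RA: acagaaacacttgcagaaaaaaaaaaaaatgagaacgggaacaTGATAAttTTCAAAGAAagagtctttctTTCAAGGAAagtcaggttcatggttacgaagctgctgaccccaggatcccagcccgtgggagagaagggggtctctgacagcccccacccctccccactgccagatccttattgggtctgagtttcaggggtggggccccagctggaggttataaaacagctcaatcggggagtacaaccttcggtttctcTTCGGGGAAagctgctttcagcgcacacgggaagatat
CSF2RA: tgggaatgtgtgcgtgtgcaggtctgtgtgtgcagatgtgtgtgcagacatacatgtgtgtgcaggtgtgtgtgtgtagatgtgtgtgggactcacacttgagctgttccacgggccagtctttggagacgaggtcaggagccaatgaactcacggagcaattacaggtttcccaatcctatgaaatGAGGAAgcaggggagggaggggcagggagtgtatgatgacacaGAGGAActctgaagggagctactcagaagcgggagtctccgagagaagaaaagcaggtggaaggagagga
In EPOR, a GATA match on the opposite strand (TTATCT) begins 78 bases before the start and a GC box (CCGCCC) 50 bases before it. IL3RA holds a GATA match 207 bases before the start and 3 STAT motifs, of which those beginning 199 and 179 bases before the start lie close together and the third lies past the start. CSF2RA holds GAGGAA 63 and 20 bases before the start, and IL6R holds it 172 bases before the start and again, on the opposite strand, 6 bases before it. No match overlapped another in these 4 windows. Of 35116 promoter windows of the same length, 25% held the GATA motif, 45.0% the GC box, 27.9% GAGGAA and 7.7% the STAT motif. Of 9 windows of members, with copies on Y left out, 3 held the GATA motif, 2 the GC box, 5 GAGGAA and 1 the STAT motif. IL10RA, not shown, holds a GATA match 164 bases before the start, and its slope on the erythroid markers (-0.45, given below) was negative. Of the 9 members, 8 matched the promoter table, all but CSF2RB. Matches are letters in a window and say nothing on whether a factor binds there.

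Array quality varied between lines. The median signal was 68.2 to 115.4 on 30 arrays and higher on NOMO-1 and GF-D8, where genes of low level read higher. The GAPDH control probe sets give a 3′ over 5′ ratio that serves as a sign of RNA quality. It was 0.871 to 1.24 on 24 arrays and 2.42 to 7.08 on 8 (GDM-1, HL-60, ML-2, MOLM-13, NB-4, THP-1, NOMO-1 and GF-D8). The markers of B cells, T and NK cells and stromal or epithelial cells were scored too, each score being the average of the list's tested genes after each gene was centred on its own mean. In the 4 cytokine-grown lines these scores ran from -0.75 to 0.20 for B cells (4 of 5 genes tested), from -0.46 to 1.24 for T and NK cells (4 of 6) and from -0.54 to -0.02 for stromal and epithelial genes (5 of 6). In the 23 units with no cytokine named they ran from -0.90 to 2.23, from -1.52 to 2.89 and from -1.27 to 1.72, and the part of these genes in any result was not tested.

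**Figure D1:**
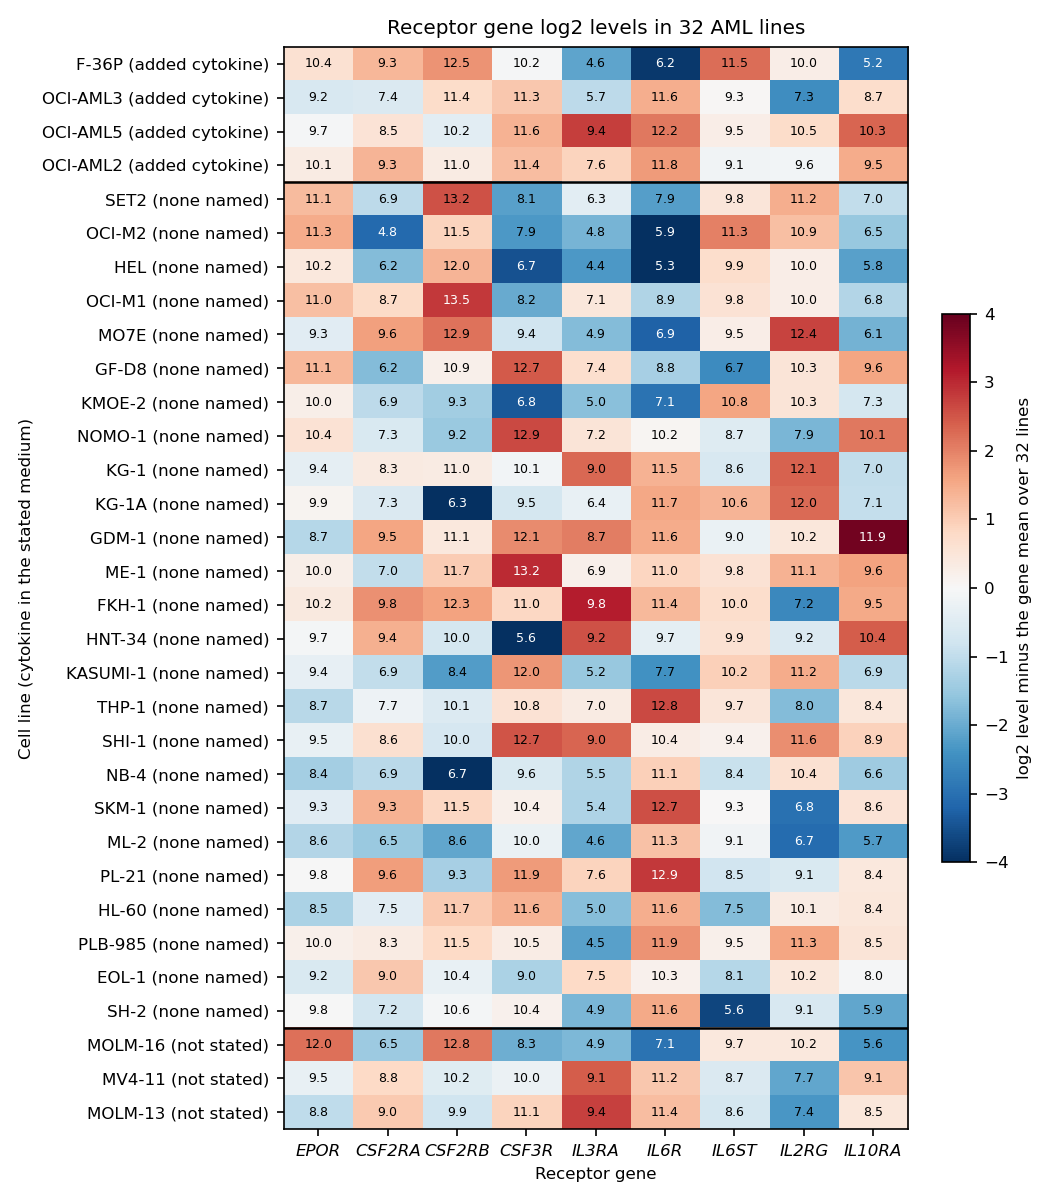
Log2 level of the 9 receptor genes (columns) in 32 AML lines (rows), printed in each cell, with colour giving the deviation from the gene's average. Lines with an added cytokine stand at the top, then lines with none named, then lines with no stated medium, each block ordered by erythroid score; the 6 lines with the highest erythroid scores, F-36P at the top, SET2, OCI-M2, HEL and OCI-M1 at the head of the second block and MOLM-16 at the head of the third, all show IL6R at 8.90 or lower.

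Most of the receptor genes varied widely from line to line. The median SD of the 15455 tested genes was 0.80 on the log2 scale. IL6R, with an SD of 2.24, varied more than 96.9% of the tested genes, CSF3R (1.96) more than 94.4%, IL3RA (1.77) more than 92%, IL10RA (1.71) more than 90.9%, IL2RG (1.61) more than 89.2% and CSF2RB (1.59) more than 88.9%. CSF2RA (1.31) stood at 82.6% and IL6ST (1.17) at 77.9%, while EPOR (0.87) was close to the middle at 57.3%. These values belong to the probe set used for each gene. For EPOR the SD was 1.53 with 37986_at, 1.96 with 209962_at, 1.49 with 209963_s_at and 0.85 with 216999_at. The low place of EPOR thus depends on the probe set. Each whole culture was measured, so fewer cells that express a gene and less RNA per cell cannot be told apart.

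CSF2RB (probe set 205159_at), the beta chain shared by the receptors of IL-3, IL-5 and GM-CSF, had a mean log2 level of 10.70 (SD 1.59, n = 30 units), from 6.68 in NB-4 to 13.49 in OCI-M1, a 112-fold range. The next highest lines were SET2 at 13.22, MO7E at 12.85, MOLM-16 at 12.76 and F-36P at 12.45. Of these 5 lines, 4 also had an erythroid score above 2, and MO7E, at 1.22, was the next in that score. KASUMI-1 (8.43), ML-2 (8.57) and KG-1A (6.25) were low.

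IL3RA (206148_at), the IL-3 binding chain, averaged 6.72 (SD 1.77, n = 30 units), from 4.39 in HEL to 9.81 in FKH-1, and passed the overall median of 6.73 in 16 of the 30 units. After FKH-1 the highest lines were OCI-AML5 at 9.44, MOLM-13 at 9.41, HNT-34 at 9.23, MV4-11 at 9.11 and SHI-1 at 9.01. With 1 array per line, the order of neighbours this close cannot be settled. F-36P, the line kept in IL-3, had a signal of 8.0 for IL3RA, a log2 level of 4.58, close to the lowest line. Its CSF2RB signal was 5588.6. MO7E paired a low IL3RA (4.94) with a high CSF2RB (12.85) in the same way, as did MOLM-16 (4.90 and 12.76) and HEL (4.39 and 12.03), while FKH-1 was high in both (9.81 and 12.29). Signals this close to 0 sit in the range where the offset of 16 compresses differences, so the folds at the low end are understated. IL3RA has no other probe set here, so its low signals could not be checked and do not show that the chain is absent.

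**Figure D2:**
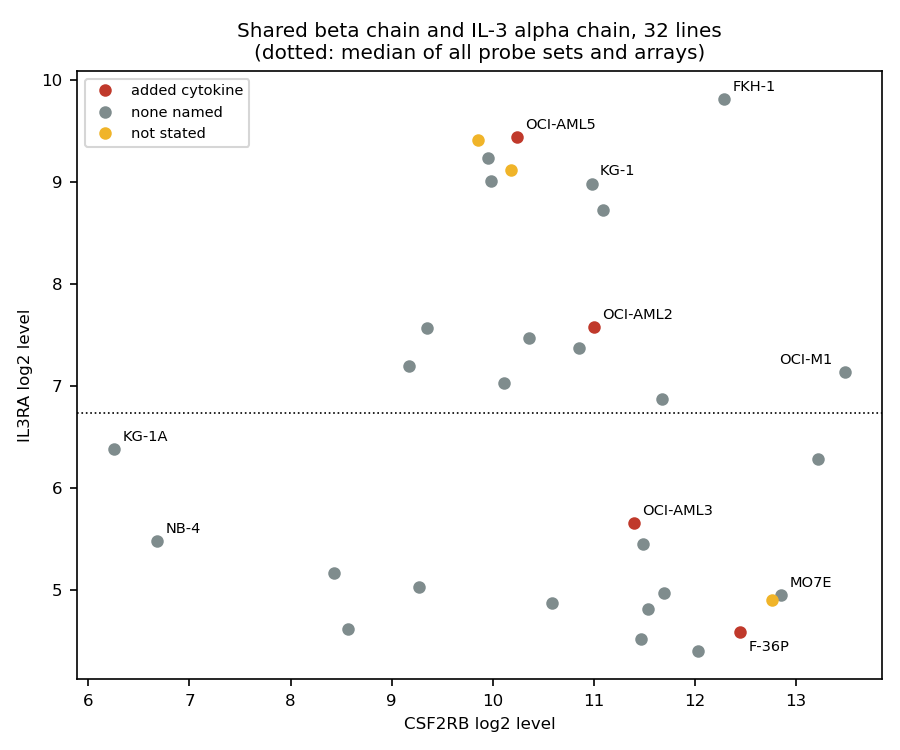
Log2 level of CSF2RB (x axis) against IL3RA (y axis) in 32 lines, coloured by growth condition with the overall median as a dotted line. The 4 cytokine-grown lines spread over the whole height of the plot, from F-36P at 4.58 to OCI-AML5 at 9.44, and KG-1A lies far to the left of KG-1.

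CSF2RA (207085_x_at), the GM-CSF binding chain, averaged 7.95 (SD 1.31, n = 30 units), from 4.83 in OCI-M2 to 9.75 in FKH-1. PL-21 (9.60), MO7E (9.58), GDM-1 (9.51) and HNT-34 (9.36) followed FKH-1 closely. Its other 3 probe sets followed the one used, with r of 0.93, 0.85 and 0.88 over 30 units. Over the same units CSF2RA went with its chromosomal neighbour IL3RA (r = 0.557, rho = 0.535) and hardly with its partner chain CSF2RB (r = 0.13, rho = 0.125), and IL3RA with CSF2RB had r = -0.125 (rho = -0.25). These correlations are descriptions over lines measured on the same kind of array, with signal scale and RNA quality shared by all genes of a line.

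EPOR averaged 9.81 (SD 0.87, n = 30 units), from 8.41 in NB-4 to 11.99 in MOLM-16, a 12-fold range. After MOLM-16 came OCI-M2 at 11.27, GF-D8 at 11.11, SET2 at 11.05 and OCI-M1 at 10.98. The gene has 5 probe sets, and the one used, 396_f_at, did not order the lines as the others did. It had r of 0.57 with 37986_at, 0.70 with 209962_at and 0.78 with 209963_s_at over 30 units. These others ranged wider than 396_f_at, from 6.12 to 12.94, from 4.93 to 13.25 and from 6.29 to 12.20 in the same order. Each of them had MOLM-16, SET2, OCI-M2, OCI-M1 and F-36P as its 5 highest units. FKH-1 ranked 9 from the highest with 396_f_at and 23, 27 and 22 with these others, and MOLM-13 ranked 26 against 13, 8 and 16. The remaining one, 216999_at, reached the overall median in 2 of 30 units and had r of 0.20. MOLM-16 was highest in 4 of the 5, at 12.94 in 37986_at, 13.25 in 209962_at and 12.20 in 209963_s_at. GF-D8, high in the probe set used, was the lowest unit in 37986_at at 6.12, so its place in the order depends on the probe set.

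**Figure D3:**
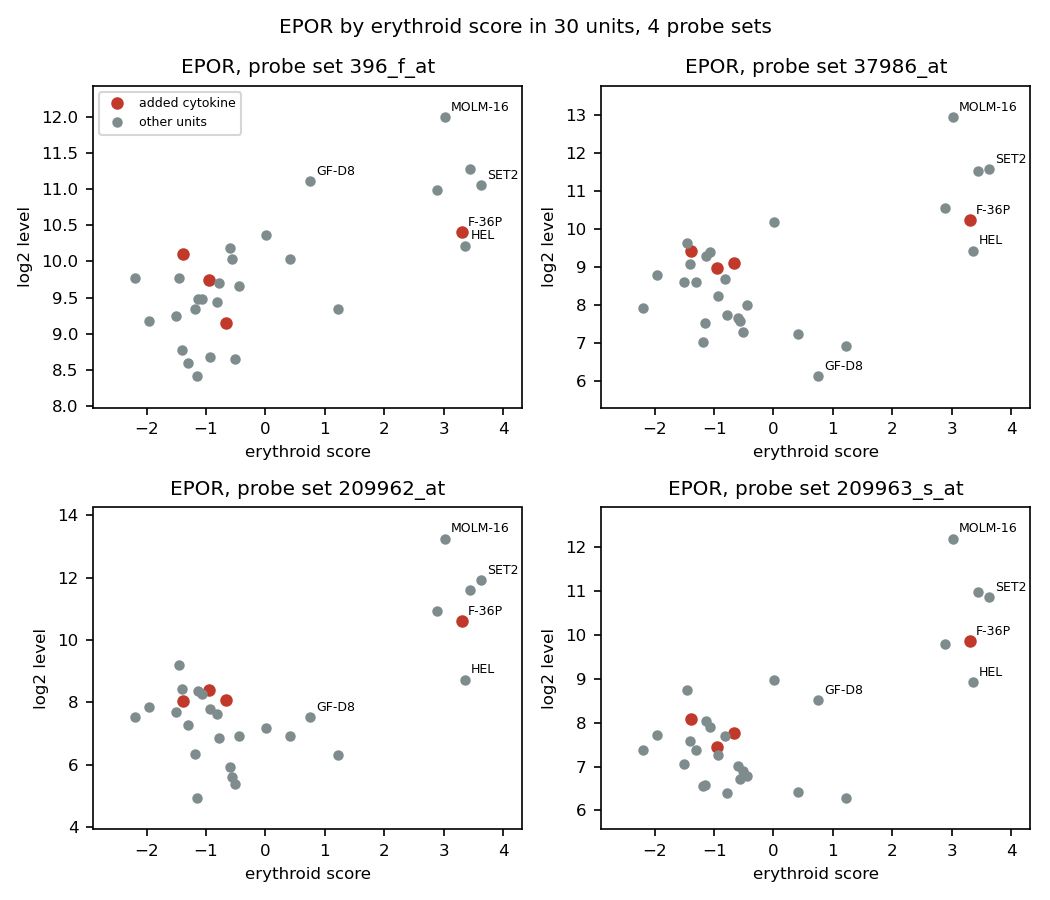
EPOR log2 level (y axis) against the erythroid score (x axis) in 30 units for 4 probe sets, 1 panel each, with cytokine-grown lines in red. In each panel MOLM-16 is highest and the 6 units with scores of 2.89 or more lie to the right of a gap, while GF-D8 is among the higher units with 396_f_at and the lowest with 37986_at.

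CSF3R (1553297_a_at), the G-CSF receptor, averaged 10.21 (SD 1.96, n = 30 units), from 5.58 in HNT-34 to 13.21 in ME-1, a 198-fold range. NOMO-1 (12.87), SHI-1 (12.73), GF-D8 (12.67) and GDM-1 (12.13) were the next highest, and HEL (6.74) and KMOE-2 (6.84) were low beside HNT-34. Of these high lines, NOMO-1, GF-D8 and GDM-1 are on arrays of high GAPDH ratio. Over all lines the median CSF3R level was 11.37 on the 8 arrays of high ratio and 10.16 on the other 24, and the part of RNA quality in this was not tested. A second probe set, 203591_s_at, ordered the units almost alike (r = 0.98).

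IL6R (226333_at), the IL-6 binding chain, had a mean of 10.01 (SD 2.24, n = 30 units). Its range, 205-fold, from 5.27 in HEL to 12.94 in PL-21, was the widest of the probe sets used. Some probe sets not used ranged wider: 4.93 to 13.25 for EPOR (209962_at), 4.72 to 12.48 for CSF3R (203591_s_at) and 4.25 to 12.91 for IL6R (205945_at). THP-1 at 12.76, SKM-1 at 12.68 and OCI-AML5 at 12.23 were next. HEL was followed at the low end by OCI-M2 (5.89), F-36P (6.24), MO7E (6.89), KMOE-2 and MOLM-16 (7.14 each) and KASUMI-1 (7.69). HEL, OCI-M2, F-36P and MOLM-16 among these had erythroid scores above 2. Its probe set 205945_at had r of 0.97 with the one used.

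IL6ST (212195_at), the signal-transducing partner of IL6R, averaged 9.27 (SD 1.17, n = 30 units), from 5.57 in SH-2 to 11.50 in F-36P. OCI-M2 at 11.27 and KMOE-2 at 10.83 followed, so the 3 units highest in IL6ST were among the 7 lowest in IL6R. Over 30 units IL6R and IL6ST had r = -0.481 (rho = -0.503). IL6ST has 7 probe sets, and only 212196_at followed the one used closely (r = 0.80), while 204863_s_at had r of 0.17 and the others, at or near the low end of the array, between -0.20 and 0.47.

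IL2RG (204116_at), the common gamma chain, averaged 9.64 (SD 1.61, n = 30 units), from 6.66 in ML-2 to 12.44 in MO7E, with KG-1 at 12.09 and KG-1A at 12.02 next to MO7E. Low levels were seen in SKM-1 (6.75), FKH-1 (7.17), OCI-AML3 (7.26), MOLM-13 (7.42) and MV4-11 (7.67). IL10RA (204912_at) averaged 8.02 (SD 1.71, n = 30 units), from 5.15 in F-36P to 11.86 in GDM-1, and HNT-34 (10.42), OCI-AML5 (10.34) and NOMO-1 (10.13) came next. IL10RA and IL3RA were the most alike pair of members (r = 0.757, rho = 0.751 over 30 units, and r = 0.769 without NOMO-1 and GF-D8). Both were high in HNT-34, OCI-AML5, FKH-1 and GDM-1 and low in HEL, F-36P, ML-2 and MOLM-16.

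The sublines KG-1A and KG-1 differed most in the chains of the IL-3 receptor. KG-1A had a CSF2RB signal of 60.2, against 2004.2 in KG-1, a difference of -4.73 in log2 level that is larger than that of 99.2% of tested genes. For IL3RA the signals were 67 in KG-1A and 489.8 in KG-1 (-2.61 on the log2 scale, larger than 96.5% of tested genes). IL6ST ran the other way, with 1557.9 in KG-1A and 379.4 in KG-1 (1.99). IL6R (11.65 in KG-1A and 11.50 in KG-1) and IL10RA (7.05 and 7.02) hardly differed, and the median absolute difference of all tested genes was 0.47. Between PLB-985 and HL-60 the largest member difference was in IL6ST, at 9.46 in PLB-985 and 7.53 in HL-60. EPOR followed, at 9.99 and 8.51, with a median absolute difference of 0.58 over all tested genes. The HL-60 array has a high GAPDH ratio and that of PLB-985 does not. With 1 array per line these differences have no replicate check.

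The next comparison asked whether receptor levels go with a cytokine being named for the medium. No member passed the threshold between the 4 cytokine-grown lines and the 23 units with no cytokine named. The groups overlapped for all 9 genes, and how many of the other tested genes overlap was not counted. In limma, 0 of 15455 genes (0%) passed an adjusted p of 0.05, the smallest adjusted p being 0.705, and 5.68% had an unadjusted p under 0.05. Medium cannot be told apart from cytokine in the 3 OCI-AML lines, since alpha-MEM was stated for no other line. The lines with none named cannot be taken as free of cytokine. Members called stayed at 0 in 13 other settings, including a fit without MO7E and GF-D8.

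Among the members CSF2RA had the smallest p-value and CSF3R the largest estimate. CSF2RA was 9.28 in F-36P, 9.31 in OCI-AML2, 8.50 in OCI-AML5 and 7.37 in OCI-AML3, against a lowest value of 4.83, a median of 7.74 and a highest of 9.75 in the units with no cytokine named (difference 0.80 ± 0.69, SE, adjusted p = 0.915). CSF3R was 10.19 in F-36P, 11.45 in OCI-AML2, 11.60 in OCI-AML5 and 11.31 in OCI-AML3, against 5.58, 10.40 and 13.21 (1.03 ± 1.03, adjusted p = 0.924). CSF3R thus varied less among the 4 cytokine-grown lines (SD 0.64) than among the 23 units (SD 2.15), with every cytokine-grown line inside the range of the others.

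The 2 chains of the IL-3 receptor showed no common direction in the cytokine-grown lines. CSF2RB was 12.45 in F-36P, 11.00 in OCI-AML2, 10.24 in OCI-AML5 and 11.40 in OCI-AML3, against 6.68, 10.59 and 13.49 (lowest, median and highest) with no cytokine named (0.70 ± 0.83, adjusted p = 0.936). IL3RA was 4.58, 7.58, 9.44 and 5.65 in the same 4 lines, against 4.39, 6.87 and 9.81 (0.25 ± 0.88, adjusted p = 0.975). The cytokine-grown lines thus held both nearly the lowest and the second highest IL3RA level of all. Without OCI-AML5 the IL3RA difference turned to -0.62, and those of IL6R and IL10RA turned to -0.07 and -0.21.

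F-36P lay outside the range of the 3 OCI-AML lines in several genes. IL6R was 6.24 in F-36P and 11.57 to 12.23 in the others, IL10RA was 5.15 against 8.70 to 10.34, IL6ST was 11.50 against 9.11 to 9.53, and CSF3R was 10.19 against 11.31 to 11.60. Of the 9 genes, IL6R was the one whose gap passed Dixon's test for 4 samples. The erythroid score was 3.31 in F-36P and -1.39 to -0.66 in the OCI-AML lines. The group differences were 0.52 ± 1.17 for IL6R, 0.43 ± 0.90 for IL10RA, 0.66 ± 0.63 for IL6ST, 0.09 ± 0.42 for EPOR and -0.51 ± 0.82 for IL2RG (SE, adjusted p from 0.922 to 0.982). Two-sided exact permutation tests of the difference in means over 17550 arrangements gave p from 0.279 for CSF2RA to 0.832 for EPOR. Standard errors of this size leave differences of about 1 log2 unit undetectable for most of these genes. The median difference of the 9 members was 0.52, against -0.06 over all tested genes.

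**Figure D4:**
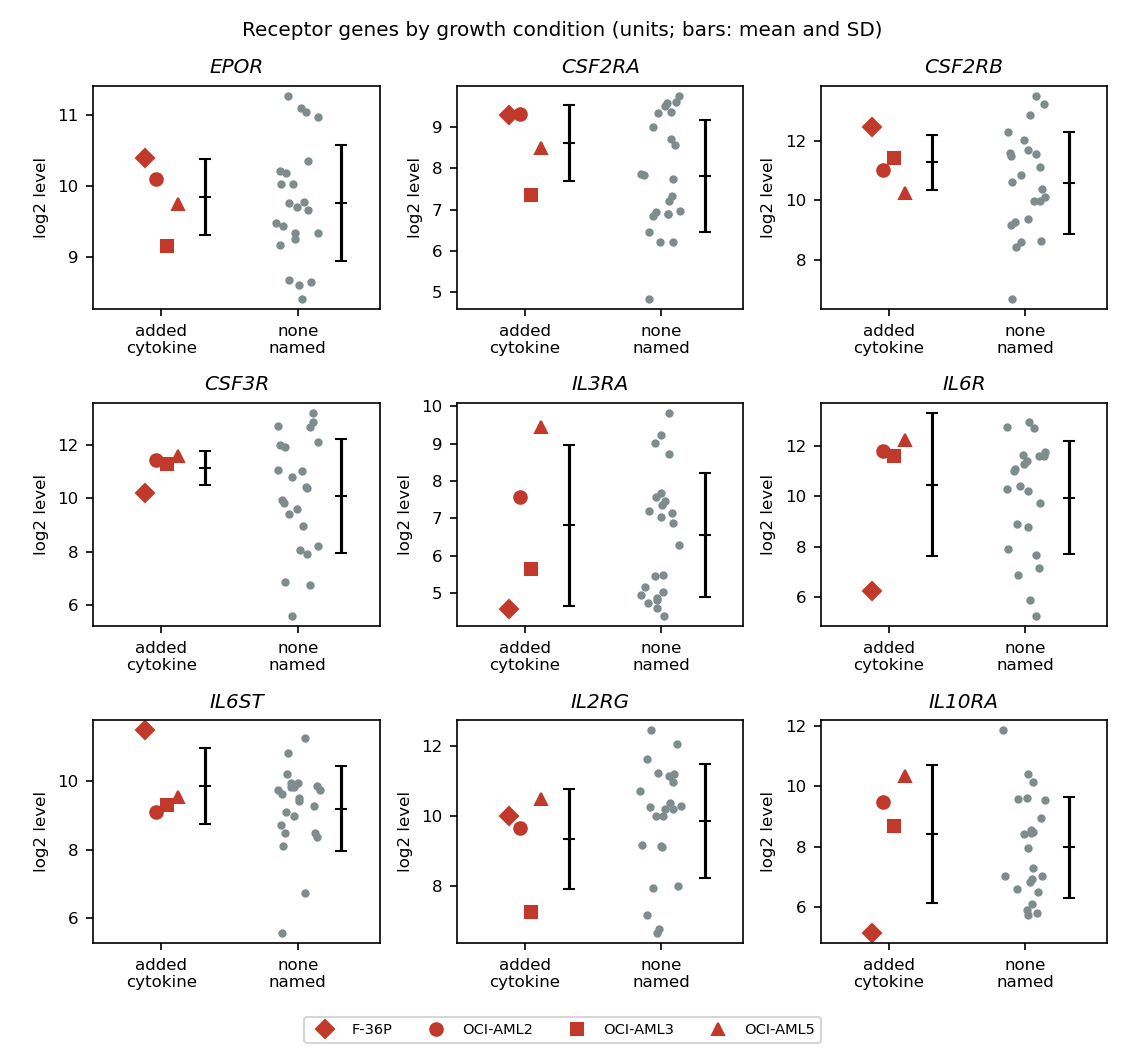
Log2 level of each receptor gene (1 panel per gene) in the 4 cytokine-grown lines (left, red, 1 symbol per line) and the 23 units with no cytokine named (right, grey), with mean and SD. The groups overlap in all 9 panels, and F-36P (diamond) lies below the other cytokine-grown lines for IL6R, IL10RA, CSF3R and IL3RA.

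Receptor genes passed the test on lineage marker scores. Scores of erythroid (13 of 17 marker genes measured), granule (12 of 14 tested) and monocyte genes (13 of 15 tested) were used as the x axis of a slope over 30 units. The other marker genes were not used here. The 3 scores are not independent: erythroid and granule scores had r = -0.67 over units, erythroid and monocyte -0.486, and granule and monocyte 0.651. A megakaryocyte score (10 of 10 genes tested) had r = 0.712 with the erythroid, -0.732 with the granule and -0.56 with the monocyte score. It was 2.91 in HEL, 2.03 in SET2, 1.27 in MOLM-16, 0.58 in F-36P, 0.47 in OCI-M2 and -0.32 in OCI-M1, and the part of these markers in the slopes was not tested. Slopes are log2 change per unit of score with SE, and adjusted p-values are from limma over all genes tested.

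With a rising erythroid score, EPOR, CSF2RB and IL6ST rose and IL6R and CSF3R fell. In this comparison 5.97% of tested genes were higher and 4.4% lower. EPOR rose by 0.35 ± 0.063 (adjusted p = 2.65e-04), CSF2RB by 0.54 ± 0.12 (adjusted p = 0.00408) and IL6ST by 0.35 ± 0.10 (adjusted p = 0.0203). IL6R had a slope of -1.02 ± 0.13 (adjusted p = 7.95e-07) and CSF3R of -0.52 ± 0.17 (adjusted p = 0.0429). IL10RA, at -0.45 ± 0.15, did not pass (adjusted p = 0.0505), but did under quantile normalization, median centring, the mean of probe sets, without NOMO-1 and GF-D8, without high-ratio arrays and with 32 separate lines (adjusted p from 0.00933 to 0.0453). It also passed without any 1 of EOL-1, GDM-1, ML-2, NB-4, KG-1/KG-1A, KASUMI-1, NOMO-1, GF-D8 or SH-2, while its slope was 0.20 within the 24 units described next. CSF2RA (-0.27 ± 0.12), IL3RA (-0.38 ± 0.16) and IL2RG (0.30 ± 0.15) did not pass.

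The erythroid scores fall into 6 units of 2.89 or more (SET2, OCI-M2, HEL, F-36P, MOLM-16 and OCI-M1) and 24 units of 1.22 or less. Within the 24, chosen as a setting after the data were seen, IL6R still fell by 1.38 per unit of score (adjusted p = 0.0168). The slopes of EPOR (0.31, adjusted p = 0.218), CSF2RB (0.36, adjusted p = 0.503), IL6ST (0.46, adjusted p = 0.268) and CSF3R (-0.05, adjusted p = 0.954) did not pass there, so these calls were not kept without the 6 units. None of the 6 is on an array of high GAPDH ratio. The median EPOR level was 8.67 on the 8 arrays of high ratio and 9.84 on the other 24, and IL6ST was 8.64 and 9.60, while all 5 calls were kept without the 8 arrays: EPOR 0.27 (adjusted p = 0.00129), CSF2RB 0.46 (adjusted p = 0.0101), IL6ST 0.34 (adjusted p = 0.0217), CSF3R -0.53 (adjusted p = 0.0464) and IL6R -0.99 (adjusted p = 4.79e-05). Slopes within the 8 arrays alone do not bear on the erythroid pattern, since none of the 6 units is among them and the highest scores there are those of GF-D8 and NOMO-1, where genes of low level read higher.

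The EPOR slope was positive and passed with each of the other 3 probe sets above the low end, at 0.47 ± 0.13 with 37986_at (adjusted p = 0.0121), 0.73 ± 0.14 with 209962_at (adjusted p = 7.63e-04) and 0.60 ± 0.10 with 209963_s_at (adjusted p = 1.21e-04). The IL6ST call was lost with the mean of its probe sets (0.11, adjusted p = 0.165), with 212196_at (0.21, adjusted p = 0.117), with 204863_s_at (0.19, adjusted p = 0.248), and without F-36P (adjusted p = 0.0693) or OCI-M2 (adjusted p = 0.0662). The CSF3R call was lost in 15 of 30 refits that each left out 1 unit: HL-60/PLB-985, MOLM-13, MOLM-16, THP-1, MO7E, KASUMI-1, OCI-AML2, OCI-AML5, OCI-M1, PL-21, OCI-AML3, OCI-M2, SHI-1, HEL or SET2, with an adjusted p of up to 0.122. It was also lost with an offset of 1 (adjusted p = 0.0589) and with no filter on low values (adjusted p = 0.0513), and passed with its second probe set (-0.74, adjusted p = 0.011).

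With a rising granule score CSF3R and IL6R rose, by 0.65 ± 0.13 (adjusted p = 0.00134) and 0.74 ± 0.15 (adjusted p = 0.00142), where 4.38% of genes tested were higher and 4.05% lower. The lines with the highest granule scores were ML-2, SHI-1 and PL-21, and the lowest were HNT-34, MOLM-16 and KMOE-2. CSF3R was 9.96 in ML-2, below its mean over units, 12.73 in SHI-1 and 11.93 in PL-21, and 5.58 in HNT-34, 8.29 in MOLM-16 and 6.84 in KMOE-2. Both calls passed in all 30 refits without 1 unit and with their second probe sets. Within the 8 arrays of high GAPDH ratio neither passed, with slopes of -0.42 for CSF3R and 0.18 for IL6R.

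EPOR fell by 0.22 ± 0.069 (adjusted p = 0.0409) and IL6ST by 0.31 ± 0.090 (adjusted p = 0.0268) per unit of granule score, and neither call was kept with the gene's other probe sets (adjusted p from 0.329 to 0.505 for EPOR, 0.118 and 0.563 for IL6ST). The EPOR call was also lost without any 1 of 13 units (F-36P, HL-60/PLB-985, ML-2, MOLM-13, MOLM-16, NB-4, THP-1, MV4-11, OCI-M1, OCI-AML3, OCI-M2, HEL or SET2), and the IL6ST call without F-36P, KMOE-2 or OCI-M2. The slopes themselves moved little for EPOR, from -0.25 to -0.18 over all 30 refits and -0.28 to -0.16 with the other probe sets, and for IL6ST ran from -0.34 to -0.26 over the refits and were -0.19 and -0.10 with the other probe sets. Both were lost with the mean of probe sets and without the high-ratio arrays, EPOR also with no filter (adjusted p = 0.0563) and quantile normalization (adjusted p = 0.0643), and IL6ST also with median centring (adjusted p = 0.141). IL2RG, at -0.34 ± 0.13, did not pass (adjusted p = 0.10) and passed only without SHI-1 (adjusted p = 0.0332).

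With a rising monocyte score IL6R rose by 1.06 ± 0.26 (adjusted p = 0.0152), in a comparison in which 2.86% of genes were higher and 1.65% lower. THP-1, SKM-1 and PL-21, the lines highest in IL6R, had monocyte scores above 1. NOMO-1 had the highest monocyte score, 2.85, with IL6R at 10.19. IL2RG fell by 0.68 ± 0.20 (adjusted p = 0.0411), and that call was lost without any 1 of 13 units (MOLM-13, MOLM-16, SKM-1, THP-1, MO7E, KG-1/KG-1A, KASUMI-1, KMOE-2, ME-1, NOMO-1, OCI-AML3, OCI-M2 or HEL), with an adjusted p of up to 0.0781. The same held with no filter, with median centring, without NOMO-1 and GF-D8 and without the high-ratio arrays (adjusted p from 0.0526 to 0.171). CSF3R (0.70 ± 0.25, adjusted p = 0.0981) and IL6ST (-0.44 ± 0.15, adjusted p = 0.0870) did not pass. They passed only without ME-1 (CSF3R, adjusted p = 0.0199) and without SH-2 (IL6ST, adjusted p = 0.0459).

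**Figure D5:**
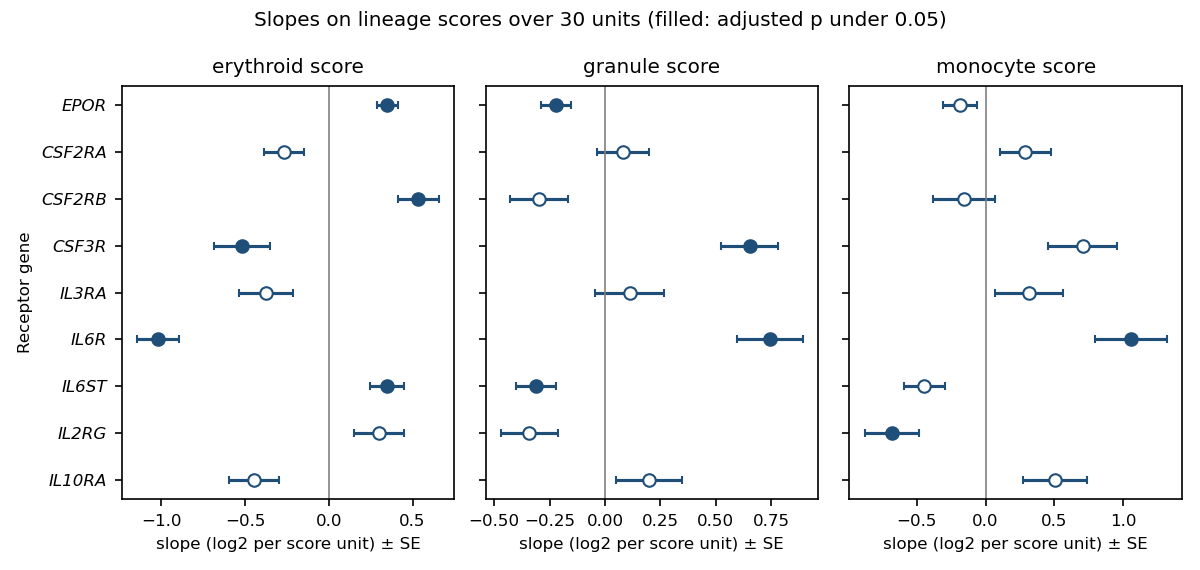
Slope of each receptor gene on the erythroid, granule and monocyte scores (x axis, log2 per unit of score, with SE) over 30 units; filled points passed an adjusted p of 0.05. IL6R lies at -1.02 on the erythroid score and at 0.74 and 1.06 on the granule and monocyte scores, and EPOR, CSF2RB and IL6ST lie right of 0 on the erythroid score.

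The series concerns PIM inhibitors, so the receptor genes were also set against PIM1 and PIM2, kinase genes that cytokine receptors induce. On PIM1, 1 of 15454 genes passed (0.00647%) and it was not a member. CSF2RB had the largest positive slope of the members, 0.32 ± 0.12 log2 per log2 unit of PIM1 (adjusted p = 0.563), followed by IL3RA at 0.29 ± 0.14 (adjusted p = 0.695).

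On PIM2, 0.725% of 15454 genes were higher and 0.757% lower, and CSF3R was the one member that passed. CSF3R fell by 1.35 ± 0.32 per log2 unit of PIM2 (adjusted p = 0.0343), and with its second probe set the slope was -1.75 (adjusted p = 0.0219). The call was lost without NOMO-1 and GF-D8 (adjusted p = 0.0657), without the 8 arrays of high GAPDH ratio (adjusted p = 0.140) and without any 1 of OCI-M1, PL-21, GF-D8, OCI-M2, HEL or SET2. CSF2RB (0.92 ± 0.28, adjusted p = 0.0855), IL6R (-1.24 ± 0.41, adjusted p = 0.10) and IL6ST (0.60 ± 0.22, adjusted p = 0.147) did not pass. With median centring CSF2RB (adjusted p = 0.00969), IL6ST (adjusted p = 0.00734) and EPOR (adjusted p = 0.029) passed too, and IL6ST also passed with quantile normalization (adjusted p = 0.0203). Without such scaling, the IL6ST slope was 0.26 with 212196_at (adjusted p = 0.420) and -0.0028 with 204863_s_at (adjusted p = 0.995). With the mean of its probe sets it was 0.12 (adjusted p = 0.518). The slope on PIM2 depended on the scaling: with each array centred on its median, 3537 genes were higher and 561 lower, against 112 and 117, and the median slope of all genes was 0.15, against -0.04.

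CSF2RB itself was used as an x axis to ask whether the chains that pair with it vary with it. No member was among the 0.621% of genes that passed. The GM-CSF binding chain CSF2RA had a slope of 0.11 ± 0.15 (adjusted p = 0.803) and the IL-3 binding chain IL3RA one of -0.14 ± 0.20 (adjusted p = 0.809). EPOR came closest, at 0.31 ± 0.085 (adjusted p = 0.0791), and passed without NOMO-1 and GF-D8 (adjusted p = 0.0393) and with median centring (adjusted p = 0.0342). With other EPOR probe sets it lay further from the threshold. The adjusted p was 0.388 with 37986_at, 0.138 with 209962_at, 0.184 with 209963_s_at and 0.176 with the mean of probe sets.

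Other genes of the same pathways were counted from 4 lists: other cytokine receptors (33 of 35 genes tested), ligands (9 of 25), receptor-proximal signalling (23 of 26) and feedback and STAT target genes (27 of 27). None of them passed in the cytokine comparison or on PIM1. Within the 4 lists, IRS2, an adaptor of cytokine and insulin receptors, had the smallest p-value in the cytokine comparison (1.98 ± 0.66, adjusted p = 0.809). IL10RB, the partner chain of IL10RA, came next (1.2 ± 0.45, adjusted p = 0.864). On PIM1 CISH, a feedback inhibitor that STAT5 induces, came closest (0.34 ± 0.063, adjusted p = 0.0591).

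On the erythroid score, where 5.97% of all tested genes were higher and 4.4% lower, 2 of 33 other receptors rose and 4 fell, 3 of 9 ligands rose, 3 of 23 signalling genes rose and 6 fell, and 3 of 27 feedback and target genes rose and 1 fell. Of the signalling genes, PIK3CD (-0.62 ± 0.13, adjusted p = 0.00109) and CBL (-0.30 ± 0.065, adjusted p = 0.00232) had the smallest p-values, and both fell. JAK2, the kinase that EPOR and CSF2RB use, rose by 0.47 ± 0.11 (adjusted p = 0.00491) and STAT5A by 0.47 ± 0.11 (adjusted p = 0.00503). PIM2 (0.30 ± 0.070, adjusted p = 0.00437), BCL2L1, which encodes the survival protein BCL-XL (0.37 ± 0.078, adjusted p = 0.00171), and ID1 (0.65 ± 0.16, adjusted p = 0.00676) rose too. PIAS1, of the same list, fell (-0.17 ± 0.040, adjusted p = 0.00499). Among the receptors LEPR (0.34 ± 0.074, adjusted p = 0.00232) and IL27RA (0.42 ± 0.096, adjusted p = 0.00372) rose, while IL17RA (-0.91 ± 0.12, adjusted p = 1.34e-06) and FLT3 (-1.0 ± 0.17, adjusted p = 1.47e-04) fell. IL7 had the largest slope of the 3 ligands that rose, 0.74 ± 0.10 (adjusted p = 5.74e-06). The median slope of all genes was -0.01, and that of the lists was -0.08 for the other receptors, 0.17 for the ligands, 0.06 for signalling genes and 0.003 for feedback and target genes.

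On the granule score, beside 4.38% of all genes higher and 4.05% lower, 3 of 33 other receptors rose and 2 fell, none of 9 ligands passed, 5 of 23 signalling genes rose and 5 fell, and 3 of 27 feedback and target genes rose and 3 fell. IL17RA (0.81 ± 0.11, adjusted p = 9.20e-06), FLT3 (0.77 ± 0.18, adjusted p = 0.00502) and PIK3CD (0.59 ± 0.11, adjusted p = 6.59e-04) rose. BCL2L1 (-0.36 ± 0.066, adjusted p = 5.50e-04), STAT5A (-0.48 ± 0.092, adjusted p = 8.56e-04), STAT3 (-0.34 ± 0.071, adjusted p = 0.00254) and PIM1 (-0.58 ± 0.16, adjusted p = 0.0196) fell. On the monocyte score, beside 2.86% of all genes higher and 1.65% lower, 4 of 33 other receptors rose and none fell, none of 9 ligands passed, 3 of 23 signalling genes rose and 3 fell, and 1 of 27 feedback and target genes rose and 2 fell. IL17RA (1.09 ± 0.22, adjusted p = 0.00332), PRLR (0.79 ± 0.18, adjusted p = 0.00749) and TNFRSF1B, a receptor of tumour necrosis factor (0.81 ± 0.20, adjusted p = 0.0144), rose. PIK3CD rose among the signalling genes (0.82 ± 0.19, adjusted p = 0.0121). STAT5A had a slope of -0.88 ± 0.13 (adjusted p = 1.66e-04), STAT3 of -0.57 ± 0.11 (adjusted p = 0.00318) and STAT5B of -0.31 ± 0.066 (adjusted p = 0.00590).

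On PIM2, IL17RA fell (-1.49 ± 0.32, adjusted p = 0.0219) and LEPR (0.66 ± 0.16, adjusted p = 0.0367), IL7 (1.16 ± 0.28, adjusted p = 0.0357) and JAK2 (1.10 ± 0.22, adjusted p = 0.0174) rose, along with ID1 and BCL2L1, while BCL6 fell (-1.03 ± 0.27, adjusted p = 0.0452). On CSF2RB only LEPR passed among the 4 lists (0.36 ± 0.088, adjusted p = 0.0454), and JAK2 had a slope of 0.48 ± 0.14 (adjusted p = 0.0910).

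The genes whose pattern over the 30 units was most like each member were found by Pearson's r among all tested genes. IL6R had the closest matches, ANKRD44 (r = 0.859), FUT7 (0.844) and P2RY8 (0.833). EPOR was followed by SLC25A21 (0.814), RIPOR3 (0.811) and GATA5 (0.784), CSF3R by PRKAG2-AS1 (0.783), SEMA4A (0.746) and HOMER3 (0.74), and IL6ST by PHF6 (0.789), ABCC4 (0.766) and STXBP5 (0.754). For IL3RA the first of all tested genes was IL10RA (0.757), then KCNQ1 (0.719) and FCMR (0.709), and for IL10RA it was LNROP (0.773), MROH7 (0.767) and then IL3RA. CSF2RB was matched by ENOX2 (0.725), CNRIP1 (0.708) and TIMP3 (0.703), IL2RG by JUP (0.702), SPRY1 (0.695) and TTC9C (0.667), and CSF2RA by KCTD18 (0.696), TAGAP (0.688) and SAP30L (0.687). All 27 values stayed at 0.66 or above without NOMO-1 and GF-D8. They were picked as the highest among all tested genes, and how high such values run by selection alone was not tested. The search used only the probe set chosen for each gene. With that probe set, the other EPOR probe sets had r of 0.20 to 0.78 and those of IL6ST -0.20 to 0.80. Whether the genes named for EPOR and IL6ST depend on the probe set was not tested.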

How the data were processed

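RNA of 32 lines was measured on 1 array each. The authors deposited linear intensity for each probe set, for which the submitters' processing notes name Affymetrix Expression Console; its version and how probes were summarized are not given in the sources used here. With the top and bottom 2% trimmed, the mean intensity was between 500.05 and 500.07 on every array. From the deposited intensities log2(signal + 16) was computed with no further scaling. Of 54675 probe sets, 41091 had 1 gene symbol, 1801 several and 11721 none listed, and 62 were controls; 54 of the probe sets with 1 symbol had no RefSeq match. Genes above the overall median log2 level of 6.73 in at least 3 units were tested (15455 of 19775). limma 3.58.1 in R 4.3.3 (lmFit, eBayes with trend) gave 7 comparisons, two-sided, adjusted by Benjamini and Hochberg's method at 0.05. Plots used matplotlib 3.10.9 and pandas 2.3.3.

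Groups came from the growth protocol, where the uncertain entry KG1? was read as KG-1A. The 9 members, the gene lists and the tests were chosen with earlier results of these data known. Named genes are the members, the 3 genes closest to each by r, and genes from the lists. List genes were drawn from the up to 4 with the smallest adjusted p among those passing, otherwise from the 2 with the smallest p. Not all of these are named in the text. Levels were compared between lines, not between genes. The number of arrays limits the precision.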

Additional observations from a re-analysis of the deposited data

Results flagged for a closer look

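IL6R in F-36P had a log2 level of 6.24, far from the other 3 cytokine-grown lines, of which the nearest was 11.57. The gap was 0.891 of the whole range of the 4 lines, above the critical value of Dixon's test for 4 samples. It was the 1 such value among 18 tests of the 9 genes in 2 groups of lines, and chance gives about 1 in 20.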

How the results depend on the processing

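Of 1575 single-gene values under other settings, 1443 kept their direction and their side of the threshold, 85 lost and 24 gained a call, and 23 changed sign. Most of these values are refits without 1 unit, which share nearly all units with the main fit. Many are for genes with no call to lose, and those of the exact permutation test repeat the main difference. The count kept is therefore no measure of how firm the calls are. Causes were not tested. The slope on PIM1 called 3 genes with an offset of 1 or quantile normalization, 2 with median centring, the mean of probe sets, without NOMO-1 and GF-D8, without the arrays of high GAPDH ratio or with 32 separate lines, and 1 to 3 when 1 unit was left out. The slope on PIM2 called 1741 genes with quantile normalization, 4098 with median centring, 123 without high-ratio arrays and 0 (without OCI-M1) to 404 (without KMOE-2) when 1 unit was left out, 82 without F-36P, 125 without PL-21, 80 without OCI-M2, 81 without HEL and 93 without SET2. Members called on PIM2 were 2 with quantile normalization, 4 with median centring, 0 without NOMO-1 and GF-D8 or without high-ratio arrays, and 0 to 1 without 1 unit. The slope on CSF2RB called 239 genes with median centring, 155 without NOMO-1 and GF-D8, 0 without high-ratio arrays or with 32 lines, and 0 (without MOLM-16 or OCI-M1) to 213 (without KMOE-2) without 1 unit, with 3 without F-36P, 1 without SET2, 30 without ML-2, 38 without HEL, 60 without PL-21, 178 without HL-60/PLB-985 and 156 without KG-1/KG-1A; it called 1 member, EPOR, with median centring and without NOMO-1 and GF-D8. On the granule score 851 genes passed without high-ratio arrays, where 2 members did, as with the mean of probe sets, and 2 to 5 without 1 unit. On the monocyte score 375 passed with median centring and 350 without high-ratio arrays; 1 member passed in these, with no filter and without NOMO-1 and GF-D8, and 1 to 3 without 1 unit. On the erythroid score 3 to 6 members passed without 1 unit. The cytokine comparison called 4 genes (1 higher, 3 lower) without high-ratio arrays and 0 to 1 without 1 cytokine-grown line (1 without OCI-AML5).

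Values that changed sign were as follows. In the cytokine comparison EPOR was -0.11 without high-ratio arrays and IL6ST -0.052 with 204863_s_at. Without 1 cytokine-grown line, EPOR was -0.091 to 0.32, IL3RA -0.62 to 1.00, IL6R -0.071 to 1.92, IL10RA -0.21 to 1.52 and IL2RG -0.88 to 0.19. On CSF2RB, CSF2RA was -0.022 without high-ratio arrays and -0.013 with 211287_x_at. On PIM2, IL6ST was -0.0028 with 204863_s_at. IL10RA was 0.20 on the erythroid score in the 24 units below its gap. Within the 8 high-ratio arrays alone the values were 1.12 (IL6R), -0.71 (CSF2RB) and -1.12 (EPOR) on PIM2, 0.0012 (IL6R) and 0.35 (IL3RA) on CSF2RB, 1.18 (CSF3R), 0.63 (IL3RA), -0.56 (IL6ST) and 1.46 (IL10RA) on the erythroid score, -0.42 (CSF3R) on the granule score, and -0.064 (IL6R) and 0.060 (IL6ST) on the monocyte score. The 2 settings within arrays or units and those with other probe sets were chosen after seeing the data. No paired analysis was possible because each line has 1 array and replicate numbers only name lines.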
